A study of Homo sapiens with 15 samples.

Results

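Untreated IGROV-CP20 cells are described here by the genes they expressed at rest, before any drug was given. IGROV-CP20 is an established human ovarian cancer line that tolerates cisplatin, a platinum drug that kills dividing cells by binding their DNA. The 3 untreated libraries were chosen by their sample labels, out of 15 libraries in 5 conditions of 3 biological replicates each. Treated cells had received cisplatin (50 µM, 24 h), either alone or preceded by a day (24 h) in a 10 µM solution of Telmisartan, a blood pressure drug, Tranilast, an anti-allergic drug, or Amphotericin B, an antifungal. All 15 libraries come from this 1 resistant line, no transgene is named in the labels, and libraries of the cisplatin-sensitive parental line were not analysed here. A level below is therefore the state of the resistant line and is not a difference caused by resistance.

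Platinum drugs enter and leave cells partly along the routes of copper. Copper enters through the transporter SLC31A1 (CTR1), is passed to the chaperone ATOX1 and is pumped into the Golgi or out of the cell by the ATPases ATP7A and ATP7B. Inside the cell, glutathione and metallothioneins bind platinum through their sulfur, and nucleotide excision repair, the Fanconi anemia pathway and homologous recombination remove its DNA lesions, while translesion polymerases copy past them.

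Each library was made from 100 ng of total RNA with QuantSeq, which reads 1 fragment near the 3′ end of each polyadenylated transcript. Levels are given as CPM, the reads on a gene divided by all reads counted in that library and multiplied by 1000000, and a rank orders the 47634 genes of the tables by mean CPM. Totals were 2691832, 2999125 and 3392054 counts in the untreated libraries and between 1510620 and 3517041 over all 15. A floor of 3 counts was worth 1.11, 1.0 and 0.884 CPM in these libraries, and it covers counting error only. Untreated libraries differed by more than sampling noise in every pair, with a chi-square per degree of freedom between 2.24 and 3.34, and were kept as 3 samples. Their log2 CPM correlated across 12202 genes at 0.980 to 0.982, a description in which genes are not independent replicates. Mitochondrial ribosomal RNA took 1.79% to 2.20% of the counts in untreated libraries and 3.41% to 13.7% with cisplatin alone.

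A gene was called expressed at 1 CPM or more in each of the 3 libraries. By this rule 12202 genes were expressed, and 10803 of them were protein-coding, 56.7% of the 19061 protein-coding genes in the tables. Of the expressed genes, 2067 had at least 100 CPM, 6379 had 10 to 100 CPM and 3756 had 1 to 10 CPM. The median coefficient of variation over the 3 libraries was 5.93% in the highest band, 10.8% in the middle and 24.8% in the lowest, where a gene rests on few reads. Because fragments come from transcript ends, CPM was not divided by length. Across 10803 expressed protein-coding genes the Spearman correlation of transcript length with mean CPM was -0.14.

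Before the levels are read, the meaning of a very low count needs a limit. The last 300 exonic bases of 594 protein-coding genes lay at least 50% under another gene on the same strand, and 19.5% of these were expressed, against 56.7% of the 16707 genes with a free end. With the other gene on the opposite strand the share was 70.9% of 939 genes. Among the listed genes 6 had such a same-strand overlap and 29 an opposite-strand overlap. GTF2H4, a subunit of the general transcription and repair factor TFIIH that all cells use, had 0 reads in all 3 libraries with its end 100% under a neighbor. GPX1 and XAB2, both broadly used genes, had 2 and 3 reads in all with no such overlap. A count of 0 therefore says that no read was counted at that gene, not that the gene was silent.

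Genes were read in 27 lists of lineage, transport, detoxification, repair and growth genes with 460 entries, of which 5 were not matched to the tables and are not analysed here. The matched entries are 453 distinct genes. Of these, 325 were expressed, 113 had at most 3 reads in each library and 50 had 0 reads in all 3. Repair was covered most fully, with 113 of 117 genes expressed, followed by growth with 96 of 115, transport with 41 of 63, detoxification with 54 of 87 and lineage with 17 of 38.

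**Figure D1:**
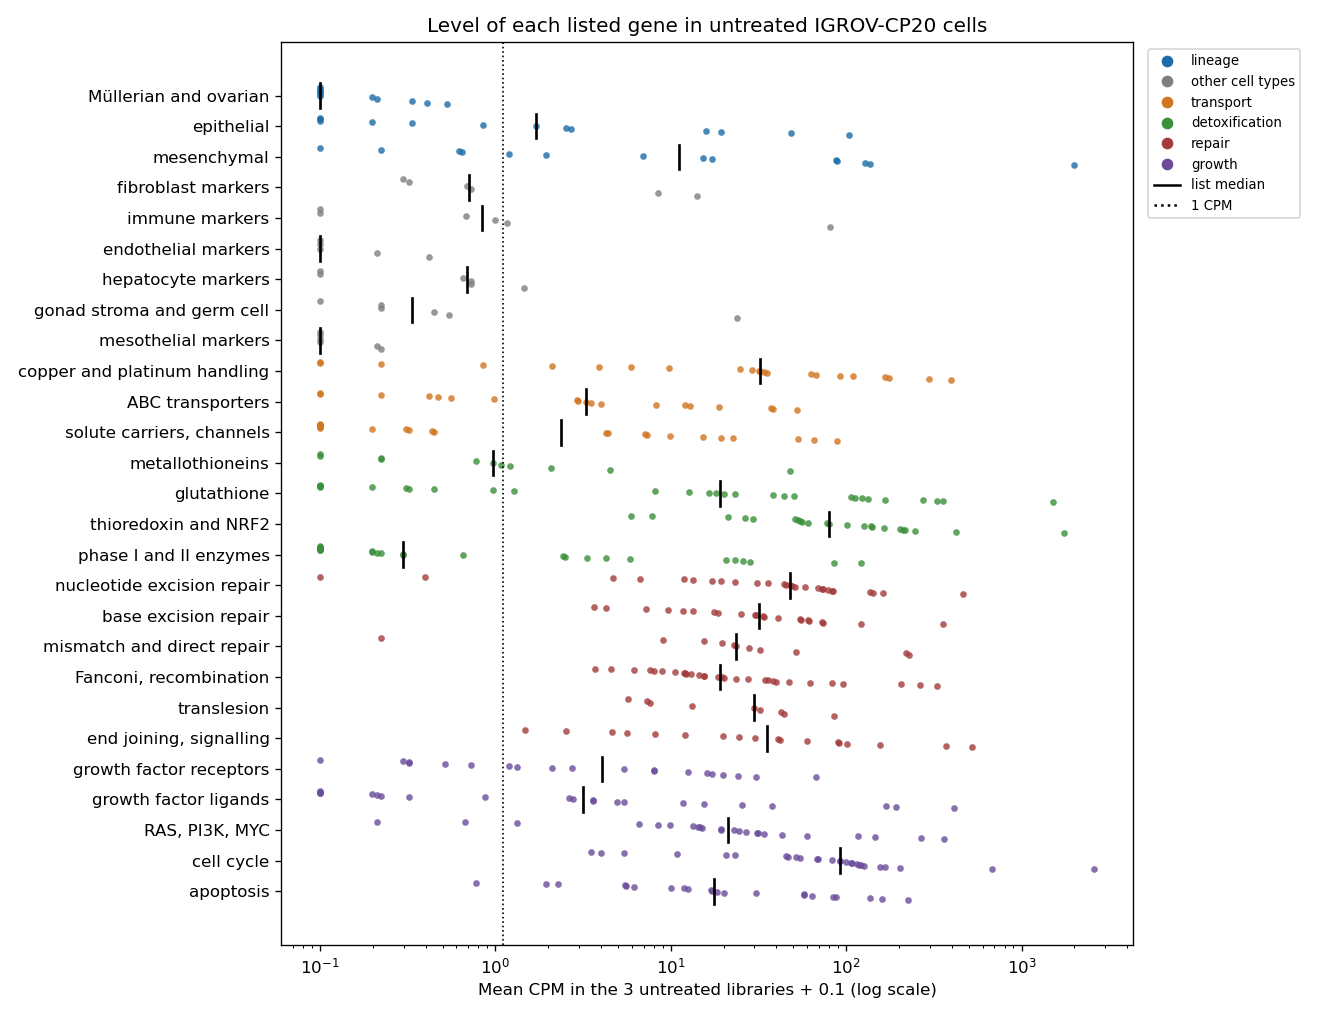
Mean CPM of every listed gene over the 3 untreated libraries, plus 0.1 so that genes at 0 can be drawn, on a log axis, with 1 row for each list and 1 point for each gene. Black bars are list medians and the dotted line is 1 CPM. The Müllerian and ovarian list lies wholly left of the line, while every gene of the base excision, Fanconi and cell cycle lists lies right of it.

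The label of an ovarian epithelial cancer line was set against its markers first. The Müllerian and ovarian list holds transcription factors and surface proteins typical of the fallopian tube and ovary, and 0 of its 11 matched genes were expressed. PAX8, the lineage factor of Müllerian epithelium, had 0 reads in each library, and the end of PAX8 lay 47.0% under an antisense gene. MUC16, which encodes the tumor marker CA125, also had 0 reads in each library. WT1, a factor of serous tumors, had 0, 0 and 1 reads. PAX2 was the highest of the list at 0.371, 0.333 and 0.59 CPM, which is 4 reads in all. MSLN, FOLR1, ESR1 and PGR, named after their values were seen, each had 0 reads. On these counts the data do not show the ovarian lineage of the label, and no test of the identity of the line was made.

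Epithelial genes were split. Of 13 matched genes 7 were expressed, 5 were at or under the floor and the median was 1.62 CPM, against 4.48 CPM over all protein-coding genes. At 2 CPM in each library in place of 1, 4 epithelial genes were expressed. KRT18, a keratin of simple epithelia, stood at 106, 97.4 and 107 CPM (rank 1999). Its partner KRT8 was lower at 19.7, 19.0 and 18.9 CPM. EPCAM, an adhesion molecule of epithelial cells, had 46.4, 50.3 and 48.1 CPM (rank 3888). CDH1, the E-cadherin of epithelial junctions, had only 1.86, 3.0 and 2.95 CPM, 24 reads in all. KRT7 and CLDN3, a keratin and a tight junction protein, had 0 reads in each library, and CLDN4 had 2 in all.

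Mesenchymal genes were higher as a group, with 10 of 14 expressed and a median of 11 CPM. VIM, the intermediate filament vimentin, was among the most abundant transcripts at 2095, 2085 and 1769 CPM (rank 41, between 37 and 48 in single libraries). CALD1, an actin-binding protein, had 138, 145 and 126 CPM, and the galectin LGALS1 had 141, 125 and 118 CPM. CDH2, the N-cadherin that often replaces E-cadherin in mesenchymal cells, reached 91.0, 80.0 and 94.9 CPM (rank 2309), where CDH1 held rank 11301. The repressor ZEB1 had 82.8, 94.4 and 84.0 CPM. Of the other factors of the same program, TWIST1 had 9.29, 6.34 and 5.01 CPM and ZEB2 had 1.11, 2.67 and 1.77 CPM, while SNAI1, SNAI2 and TWIST2 had at most 3 reads in any library. Thus keratin 18 and EPCAM were expressed side by side with vimentin, N-cadherin and ZEB1, and bulk counts do not tell whether the same cells held them. In bulk samples, fewer cells of a type and less RNA per cell cannot be told apart.

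Markers of other cell types were mostly at the floor. Over 6 lists, 4 of 35 genes were expressed and 12 had 0 reads in all 3 libraries. Endothelial and mesothelial markers had 0 expressed genes of 5 and of 6, with sums of at most 1.0 and 0.371 CPM in any untreated library. VWF, CDH5, UPK3B and LRRN4 had 0 reads in each. Hepatocyte markers summed to 1.86 to 5.31 CPM, with CYP3A4 and FGB at 0, and 0 of 6 were expressed.

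One immune marker stood apart. PTPRC, the leukocyte phosphatase CD45, was at 81.7, 74.7 and 87.3 CPM (rank 2503), close to CDH2. The other 5 immune markers were near the floor. CD3E and CD14 had 0 reads in each library, and over the 3 libraries LYZ had 9 reads and CD68 had 10. Summed, the immune list was 76.0 to 91.7 CPM, nearly all of it PTPRC. The ends of CD68 and LYZ lay 70.3% and 97.0% under other genes. FOXL2, a transcription factor of ovarian granulosa cells, was at 20.1, 24.7 and 26.2 CPM, while AMH, DDX4, STAR and CYP19A1 of the same gonadal list had at most 2 reads in any library. COL3A1 with 12.6, 15 and 14.4 CPM and COL1A1 with 7.43, 10 and 7.66 CPM were the 2 expressed fibroblast markers of 6, and LUM and PDGFRB had 2 reads each. With 1 CPM in any 1 library as the rule, 4 immune markers and 4 fibroblast markers were expressed.

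The most abundant transcripts were those of protein synthesis and mitochondria. The 20 highest genes took 12.8% of all counts and the 100 highest took 25.9%. Among the 20 were 9 ribosomal protein genes, 4 genes of the mitochondrial genome and 7 others. MT-RNR2, the large mitochondrial ribosomal RNA, ranked first at 17146 ± 2151 CPM (SD, n = 3), followed by RPL27A at 12303 ± 1262 CPM, RPS27A at 12180 ± 957 CPM and RPS12 at 9984 ± 473 CPM. RPL27A and RPS27A differed by less than their spread. MALAT1, a nuclear long noncoding RNA, was the least steady of the 20, at 4147, 8299 and 7192 CPM. Chaperones were also near the top, with the cytosolic HSP90AB1 at 6212 ± 85.7 CPM (rank 7) and HSPA5, the chaperone BiP of the endoplasmic reticulum, at 5043 ± 238 CPM (rank 11). NUCKS1, a nuclear DNA-binding protein, and PTMA, prothymosin alpha, held ranks 9 and 10, and the glycolytic enzyme GAPDH rank 15.

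**Figure D2:**
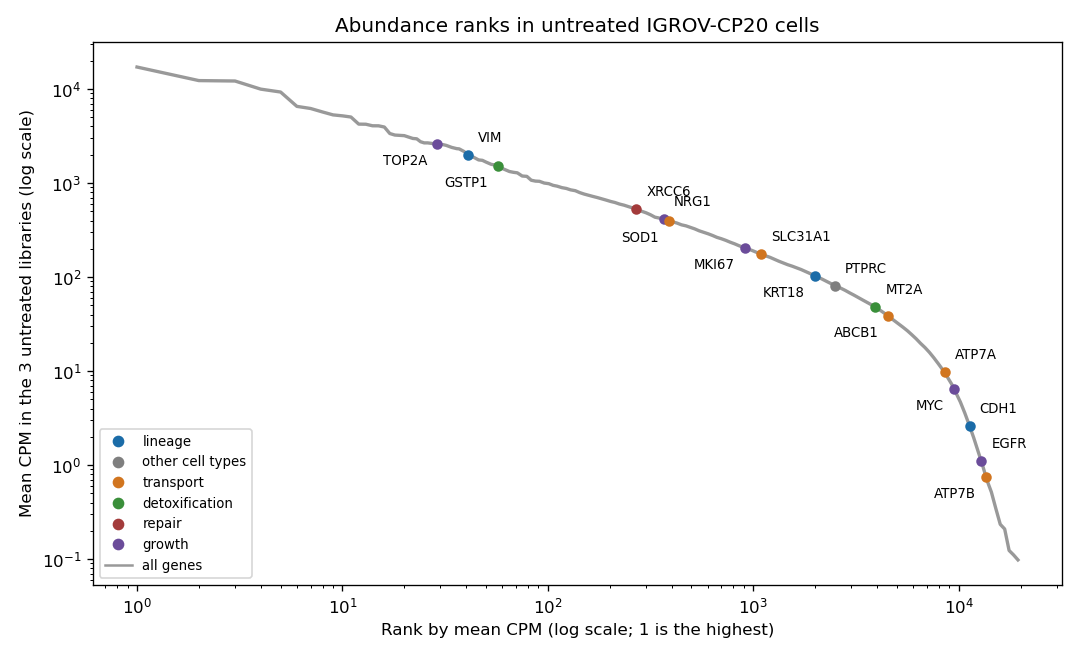
Mean CPM in the 3 untreated libraries against rank, both on log axes. The gray line is all genes and points are listed genes colored by class. TOP2A, VIM and GSTP1 lie within the first 57 ranks, ATP7A and MYC at ranks 8538 and 9484, and ATP7B at the low end of the curve.

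Copper and platinum handling genes were mostly expressed, 18 of 22, with 5 at 100 CPM or more and a median of 32.0 CPM. The entry side was high. SLC31A1, the copper importer, stood at 165, 172 and 192 CPM (rank 1086). SLC31A2, a related vesicular protein, had 2.23, 2.33 and 1.47 CPM, and its end lay 100% under a gene on the opposite strand. The cytosolic chaperones were also well expressed. ATOX1, which delivers copper to the ATPases, was at 76.9, 57.7 and 54.5 CPM (rank 3144), and COX17, which serves mitochondria, was at 64.3, 55.0 and 81.7 CPM (rank 2980). These neighbors in the order do not differ beyond their spread. SOD1, the copper and zinc superoxide dismutase, was the highest of the list at 396, 409 and 383 CPM (rank 389), and APP, a copper-binding precursor protein, followed at 294, 296 and 297 CPM (rank 586).

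The export ATPases lay far below. ATP7A had 8.54, 9.0 and 11.5 CPM (rank 8538), which is 89 reads over the 3 libraries. ATP7B had 1, 3 and 3 reads, or 0.371, 1.0 and 0.884 CPM (rank 13592), at the floor in each library and with no other gene over its end. By read counts at the transcript end, ATP7A was above ATP7B in all 3 libraries. The study detected ATP7B in this line by quantitative PCR, Western blot and immunofluorescence, at higher levels than in the parental line. There, silencing ATP7B lowered viability in cisplatin, while silencing ATP7A had no significant effect. A count at the floor at this depth therefore does not show that ATP7B was absent. SCO2, a copper chaperone of cytochrome c oxidase, had 34.5, 33.7 and 34.2 CPM. CP, the plasma ferroxidase ceruloplasmin, had 1 read in all and STEAP4, a metalloreductase, had 0.

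ABC transporters, the ATP-driven efflux pumps, had 12 of 19 genes expressed, but 0 reached 100 CPM and the median was 3.18 CPM. ABCA3, a lipid transporter, led with 54.2, 51.3 and 51.9 CPM (rank 3657). ABCB1, the multidrug pump P-glycoprotein, was next at 41.6, 35 and 38.0 CPM (rank 4550). ABCC1 (MRP1) was far lower at 2.23, 2.67 and 6.78 CPM, with replicate 3 above the others. ABCG2 (BCRP) had 1.11, 0.667 and 0.884 CPM. ABCC2 (MRP2), an exporter of glutathione conjugates, had 1 read in all, ABCB4 had 3 and ABCB11 had 0. Thus of ABCB1, ABCC1, ABCC2 and ABCG2, only ABCB1 was above 10 CPM. In all, 6 genes of the list had 10 to 100 CPM. They include ABCC5 and ABCC4, named after their values were seen, with means of 18.8 and 12.8 CPM.

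Of solute carriers and channels 11 of 22 were expressed and 11 were at or under the floor, with a median of 2.26 CPM. The organic cation transporters SLC22A2 and SLC22A3, carriers for which platinum drugs are substrates, had 0 reads in each library. LRRC8B and LRRC8D, subunits of the volume-regulated anion channel, were the highest with TMEM205. LRRC8B had 72.8, 99.7 and 91.7 CPM, TMEM205, a membrane protein linked to platinum resistance, had 64.6, 77.0 and 55.7 CPM, and LRRC8D, the subunit through which the channel passes platinum drugs, had 55.4, 50.7 and 52.2 CPM. LRRC8B and LRRC8D did not overlap over the 3 libraries, while TMEM205 overlapped LRRC8B and lay above LRRC8D in each library.

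**Figure D3:**
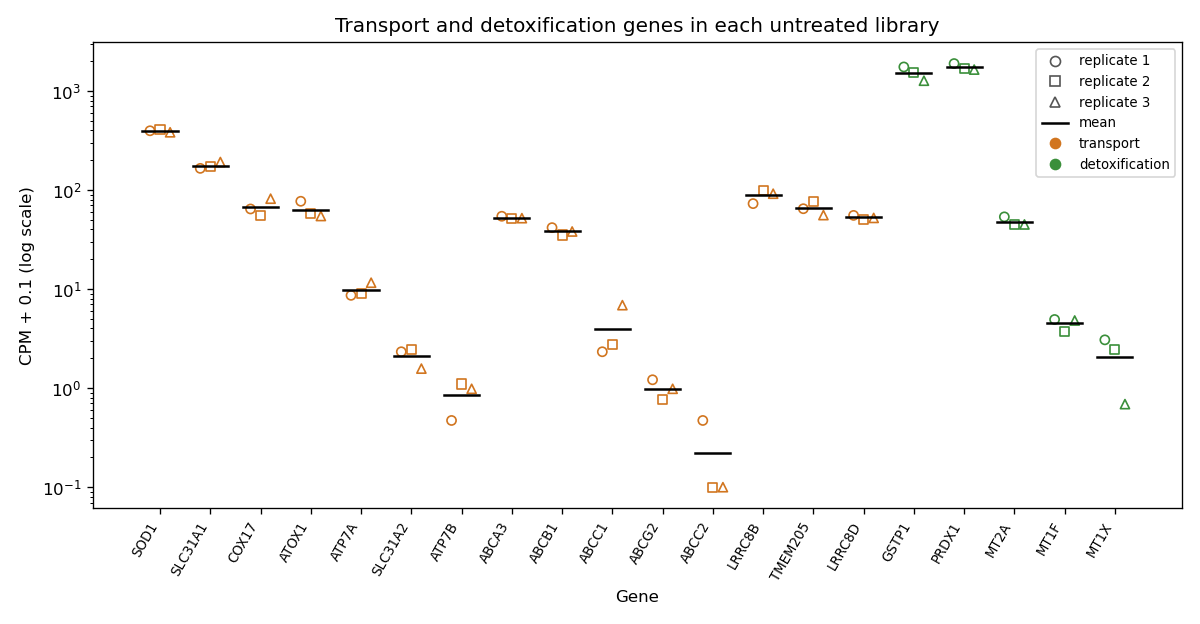
CPM plus 0.1 of transport genes (orange) and detoxification genes (green) in each of the 3 untreated libraries, on a log axis, with the mean as a bar. ATP7A and ATP7B lie below SLC31A1 and ATOX1 in every library, and ABCC2, ABCG2 and ATP7B lie near 1 CPM or below. GSTP1 and PRDX1 are the highest genes drawn in each library.

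Glutathione genes had 18 of 28 expressed, 9 of them at 100 CPM or more, and a median of 18.9 CPM. GSTP1, the transferase that conjugates electrophiles to glutathione, was at 1748, 1541 and 1269 CPM (rank 57, and 56 when CPM is divided by transcript length). GSTO1 had 335, 355 and 379 CPM and GSTZ1 had 281, 362 and 346 CPM, so these overlap. SLC7A11, which imports cystine for glutathione synthesis, was at 127, 134 and 139 CPM (rank 1502). GPX4, the selenoprotein that reduces lipid peroxides, had 119, 143 and 107 CPM, while its relatives GPX2 and GPX3 had 3 and 0 reads over the 3 libraries.

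All 23 thioredoxin and NRF2 pathway genes were expressed, with a median of 79.4 CPM, and 11 had at least 100 CPM. PRDX1, a peroxiredoxin, reached 1890, 1694 and 1644 CPM (rank 49), with its end 100% under an opposite-strand gene. TKT, the transketolase of the pentose phosphate pathway, was nearly constant at 422, 422 and 418 CPM (rank 354). PRDX6 had 267, 231 and 244 CPM and the ferritin light chain FTL had 213, 208 and 214 CPM. SRXN1, which restores oxidized peroxiredoxins, had 133, 126 and 161 CPM.

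Phase I and II enzymes, which oxidize and conjugate drugs, split into a few higher genes and many genes at the floor. Of 25, 11 were expressed, 14 were at or under the floor and the median was 0.197 CPM. AKR1B1, aldose reductase, had 116, 134 and 114 CPM, its relative AKR1A1 had 85.8, 89.7 and 79.3 CPM, and CYP1B1 had 28.6, 24.0 and 32.1 CPM. Other aldo-keto reductases of the list were not high. AKR1B10 had a mean of 0 CPM, and AKR1C1, AKR1C2 and AKR1C3 had 0.197, 0.0983 and 0.111 CPM. CYP3A4 and CYP2D6, main drug oxidases of liver, had 0 reads in each library.

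Metallothioneins, small cysteine-rich proteins that bind zinc, copper and platinum, were low except for 1 member. Of 11 matched genes, 2 were expressed, and the median was 0.876 CPM. MT2A was at 53.5, 44.3 and 44.8 CPM (rank 3924), MT1F at 4.83, 3.67 and 4.72 CPM and MT1X at 2.97, 2.33 and 0.59 CPM. MT1H and MT1M had 1 read each in all, and MT1B had 0. The count of expressed genes rests on few reads: it was 5 at 0.5 CPM, and 4 without untreated replicate 3. The genes share near-identical sequence, so that reads may be split or lost between them, which was not tested. They are switched on through metal response elements, short promoter motifs bound by the factor MTF1. Promoters of a high, a low and a nearly unread gene are printed to show that all hold the motif. They are the 250 bases before the start site in RefSeq, GRCh38.p14, plus strand, with the cores TGCACNC and TGCGCNC on either strand in capitals, overlapping matches included. MT2A lies at chr16:56608334-56608583, MT1X at chr16:56682220-56682469 and MT1H at chr16:56669564-56669813.
MT2A: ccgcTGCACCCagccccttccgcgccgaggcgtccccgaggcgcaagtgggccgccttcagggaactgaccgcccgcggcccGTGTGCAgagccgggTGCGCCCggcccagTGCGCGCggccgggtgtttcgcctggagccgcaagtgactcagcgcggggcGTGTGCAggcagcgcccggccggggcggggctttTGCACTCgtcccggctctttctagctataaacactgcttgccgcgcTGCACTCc
MT1X: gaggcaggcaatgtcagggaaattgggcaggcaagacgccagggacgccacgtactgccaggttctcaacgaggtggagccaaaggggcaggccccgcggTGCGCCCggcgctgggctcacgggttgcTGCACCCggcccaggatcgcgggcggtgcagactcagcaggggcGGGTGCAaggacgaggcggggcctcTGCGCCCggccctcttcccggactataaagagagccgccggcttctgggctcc
MT1H: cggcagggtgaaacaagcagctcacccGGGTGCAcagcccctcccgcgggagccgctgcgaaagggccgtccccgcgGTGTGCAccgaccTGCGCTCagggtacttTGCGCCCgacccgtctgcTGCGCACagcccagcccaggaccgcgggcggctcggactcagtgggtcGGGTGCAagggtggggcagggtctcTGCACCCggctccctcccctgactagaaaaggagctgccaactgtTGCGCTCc
The MT2A window held 7 core matches, MT1X 4 and MT1H 8. In all, 5 of the metallothionein genes had a window in the RefSeq table and 100% of them held at least 2 matches, against 6.48% of 35116 windows of the same length. The number of matches did not order these genes by level, since MT1H had more matches than MT2A and 0.124 CPM against 47.6 CPM. A match is a string of letters and says nothing of binding in these cells.

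DNA repair was expressed nearly throughout. Nucleotide excision repair, which cuts out bulky lesions such as platinum adducts, had 25 of 27 genes expressed and a median of 47.7 CPM. RAD23B, the partner of the damage sensor XPC, led at 492, 435 and 458 CPM (rank 314), followed by DDB1 at 158, 155 and 172 CPM and the TFIIH subunit GTF2H3 at 148, 141 and 140 CPM. XPC itself had 75.4, 67.7 and 77.8 CPM (rank 2763), and ERCC1, which forms the nuclease that cuts beside the lesion, had 52.8, 49.3 and 44.5 CPM (rank 3847).

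All 30 genes of the Fanconi anemia and homologous recombination list were expressed, with a lower median of 19.0 CPM. RAD50 stood at 325, 347 and 322 CPM (rank 508) and RBBP8, the CtIP factor that starts end resection, at 288, 263 and 244 CPM. BRCA1 had 175, 239 and 205 CPM (rank 902) and BRCA2 had 59.1, 61.7 and 66.0 CPM (rank 3180), so that the libraries of these genes did not overlap. All 9 translesion genes were expressed at a median of 29.7 CPM, led by POLK at 79.5, 84.7 and 90.2 CPM, while REV3L, the catalytic subunit of polymerase zeta, had 33.1, 45.3 and 49.5 CPM. PCNA, the sliding clamp, had 34.2, 28.3 and 26.5 CPM.

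All 22 base excision repair genes were expressed as well, at a median of 32.0 CPM, with PARP1, the break sensor, at 336, 335 and 400 CPM (rank 455), MBD4 at 123, 129 and 114 CPM and the uracil glycosylase UNG at 50.5, 54.3 and 57.8 CPM. The end joining proteins XRCC6 and XRCC5, the Ku heterodimer, had 495, 535 and 545 CPM and 381, 360 and 376 CPM. XRCC6 was the highest of the listed repair genes.

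Mismatch and direct repair had high and steady members. MGMT, which removes alkyl groups from guanine, was at 228, 229 and 225 CPM (rank 805). MSH6, which takes part in lesion recognition, was at 217, 223 and 215 CPM.

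Cell cycle genes were all expressed, 27 of 27, with the highest median of any list at 92.5 CPM. TOP2A, the topoisomerase of dividing cells, was at 2651, 2425 and 2737 CPM (rank 29). MKI67, the proliferation marker Ki-67, had 176, 224 and 212 CPM (rank 913), and the D-type cyclin CCND2 had 678, 674 and 693 CPM (rank 178). CDKN1A, the inhibitor p21, was low at 4.46, 4.33 and 7.08 CPM (rank 9920).

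Growth factor ligands and receptors covered very different levels. Of 22 ligands 13 were expressed, and 3 exceeded 100 CPM. NRG1, a ligand of ERBB3 and ERBB4, was at 430, 404 and 402 CPM (rank 367), HGF, the ligand of MET, at 207, 176 and 193 CPM (rank 987) and FGF2 at 181, 153 and 172 CPM (rank 1146). EGF, TGFA and AREG, ligands of EGFR, had 1, 1 and 0 reads over the 3 libraries. Of 20 receptors 14 were expressed, with 0 at 100 CPM or more and a median of 3.97 CPM. IGF2R led with 67.2, 57.4 and 77.5 CPM, followed by ERBB3 at 32.3, 29.7 and 29.8 CPM, FGFR1 at 21.9, 24.3 and 26.2 CPM and ERBB2 at 21.2, 18 and 20.3 CPM. EGFR had 1.11, 1.0 and 1.18 CPM, 10 reads in all. MET had 2 reads in all, so that HGF was read far above its receptor in each library.

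Signaling and survival genes followed the same uneven order. Of 24 genes of the RAS, PI3K and MYC list 22 were expressed. AKT2 had 366, 334 and 380 CPM (rank 446), the kinase MAP2K2 had 302, 269 and 226 CPM and PIK3CA had 150, 139 and 147 CPM, with its end 100% under an opposite-strand gene. MYC was low at 6.69, 7.0 and 5.90 CPM (rank 9484), and MYCN had 1 read. Of 22 apoptosis genes 20 were expressed, with the survival factor MCL1 at 220, 236 and 218 CPM (rank 817), BCL2L1 (BCL-XL) at 48.7, 61.0 and 81.7 CPM and BCL2 at 1.11, 0.333 and 0.59 CPM, or 6 reads in all. Of these 3 related survival proteins MCL1 was the highest in every library. The pro-death BBC3 (PUMA) was at 178, 145 and 159 CPM.

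The libraries agreed well for most abundant genes. Among genes with a mean of at least 50 CPM the 5 largest ratios between the highest and the lowest untreated library ran from 2.05 to 2.49. They were ENSG00000258486, which has no name in the tables used here, with 143, 69.7 and 57.2 CPM, ENDOG with 107, 86.4 and 48.9 CPM, GTF2F1 with 218, 186 and 103 CPM, SPOUT1 with 323, 245 and 158 CPM, and the pseudogene MTND1P23 with 49.4, 54.0 and 101 CPM. The end of ENDOG lies 100% under SPOUT1 on the opposite strand, and both were highest in replicate 1 and lowest in replicate 3. In 4 of these 5 genes replicate 1 was highest and replicate 3 lowest.

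To show which of these resting levels differ from those of treated cells, they were compared with cisplatin alone by edgeR's quasi-likelihood test. It was fitted on the 11113 genes kept by its filter, which needs enough reads in as few as 3 libraries. A gene could thus enter through the condition where it was high. Values in this comparison are normalized CPM, which use TMM-scaled library sizes and are lower for untreated cells than the CPM above. Untreated cells had lower levels of 2345 genes (21.1%) and higher levels of 2622 (23.6%) at an adjusted p under 0.05, with a median log2 difference over all genes of 0.01. Scaled by library size only, 1019 were lower and 3351 higher and the median moved to 0.36, so the split depends on the scaling. Without cisplatin replicate 1, which had the highest share of mitochondrial ribosomal RNA among the cisplatin-alone libraries at 13.7%, 2347 were lower and 2781 higher. The part of this RNA share in the results was not tested. The replicates are biological by label. The study's general statistics section describes independent experiments on separate days, but its sequencing methods do not say whether that holds for these libraries.

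Receptors were mostly higher, with 8 of the 10 tested higher in untreated cells and 1 lower and a median log2 difference of 1.75. Over all tested genes 23.6% were higher and 21.1% lower. Receptors with too few reads for the filter were not tested, and a tested one may have entered through its untreated reads. The count and the median therefore describe the tested receptors only. ERBB3 was at 27.6, 25.7 and 26.9 normalized CPM untreated and 4.42, 3.82 and 3.93 with cisplatin (log2 difference 2.67 ± 0.38 SE, adjusted p = 4.2e-05). IGF2R was 57.5, 49.6 and 69.9 against 13.8, 6.20 and 6.29 normalized CPM, a 6.65-fold difference (adjusted p = 9.8e-06). Of 10 ligands tested 3 were higher and 2 lower. NRG1 was at 368, 350 and 363 against 103, 9.54 and 19.3 normalized CPM (log2 difference 3.03 ± 0.53, adjusted p = 0.00026), with groups that do not overlap although cisplatin replicate 1 was far above the other 2. Without that library its log2 difference was 4.58. HBEGF, a ligand of EGFR, was the reverse, at 3.81, 2.02 and 1.06 untreated and 45.3, 26.7 and 19.3 with cisplatin (adjusted p = 7.0e-06). Without cisplatin replicate 2, 4 receptors were higher in place of 8.

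Lineage and transport genes are given next. Untreated cells were lower for 2 and higher for 5 of 14 lineage genes tested. For transport they were lower for 4 and higher for 7 of 38, and 27 were not called, against 21.1% lower and 23.6% higher over all 11113 genes. Copper and platinum handling had 4 lower and 2 higher of 17, and solute carriers and channels had 0 lower and 1 higher of 11. CDH2 was at 77.8, 69.2 and 85.6 normalized CPM untreated and 14.4, 3.82 and 2.75 with cisplatin, 11.3-fold higher untreated (adjusted p = 9.6e-06), and PTPRC at 69.9, 64.6 and 78.7 against 14.9, 2.38 and 3.54 (10.4-fold, adjusted p = 3.4e-05). Both had their highest cisplatin value in replicate 1, and without it their log2 differences moved from 3.50 to 4.53 for CDH2 and from 3.38 to 4.51 for PTPRC. CDH1 was lower untreated, at 1.59, 2.60 and 2.66 against 9.39, 7.63 and 8.26 (log2 difference -1.89 ± 0.38, adjusted p = 0.00082). Of the mesenchymal list 4 of 8 tested genes were higher and 0 lower, and of the epithelial list 1 was higher and 2 lower of 6. ABCB1 was 10.3-fold higher untreated, at 35.6, 30.3 and 34.3 against 1.66, 5.25 and 2.36 (adjusted p = 1.2e-05), and 4 of 10 ABC transporters were higher with 0 lower. ATOX1 was lower untreated, at 65.8, 49.9 and 49.2 against 260, 144 and 84.2 (log2 difference -1.60 ± 0.40, adjusted p = 0.0042), whereas ATP7A was higher (log2 difference 2.24 ± 0.57, adjusted p = 0.0044). SLC31A1 did not pass the test (log2 difference 0.44 ± 0.27, adjusted p = 0.20), and ATP7B was too low to be tested. The ABC transporter count of 4 was 2 without untreated replicate 1 and 1, with 1 lower, without cisplatin replicate 2. The 2 lower epithelial genes became 1 without untreated replicate 2 or cisplatin replicate 2.

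Antioxidant, base excision repair and cell cycle lists leaned the other way. For comparison, 21.1% of all 11113 genes were lower and 23.6% higher in untreated cells. Untreated cells were lower for 10 and higher for 2 of 23 thioredoxin and NRF2 genes, with a median log2 difference of -0.52. FTL, at 182, 180 and 193 normalized CPM untreated and 922, 699 and 619 with cisplatin, had the smallest adjusted p of that list (5.7e-06). Of 21 base excision repair genes 11 were lower and 0 higher. FEN1, the flap nuclease, was at 26.1, 28.6 and 24.5 against 102, 301 and 248 (log2 difference -3.09 ± 0.30, adjusted p = 4.1e-06), and UNG at 43.2, 47.0 and 52.1 against 175, 303 and 268 (adjusted p = 1.2e-06). Of 27 cell cycle genes 15 were lower, E2F1 and MCM2 with the smallest adjusted p, and 4 were higher. TOP2A was among the higher, at 2267, 2097 and 2469 against 885, 1495 and 1297 (adjusted p = 0.0055), while MKI67 did not pass (log2 difference -0.10 ± 0.20, adjusted p = 0.72). The nucleotide excision list had 3 lower and 3 higher of 25 tested, both below the shares over all genes, and 5 lower without cisplatin replicate 3. These counts lean on the scaling and on single libraries. Scaled by library size only, which moved the median of all genes, lower and higher genes were 6 and 4 for thioredoxin and NRF2, 5 and 2 for base excision repair, 8 and 5 for the cell cycle and 0 and 8 for nucleotide excision. The 10 lower thioredoxin and NRF2 genes became 5 without cisplatin replicate 1, and the 2 higher became 0 without untreated replicate 1 or 2 and 1 without untreated replicate 3, cisplatin replicate 2 or cisplatin replicate 3. The 11 lower base excision genes became 7, 7 and 6 without untreated replicate 1, 2 or 3 and 6 without cisplatin replicate 2. The 4 higher cell cycle genes became 2 without untreated replicate 3 or cisplatin replicate 3.

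**Figure D4:**
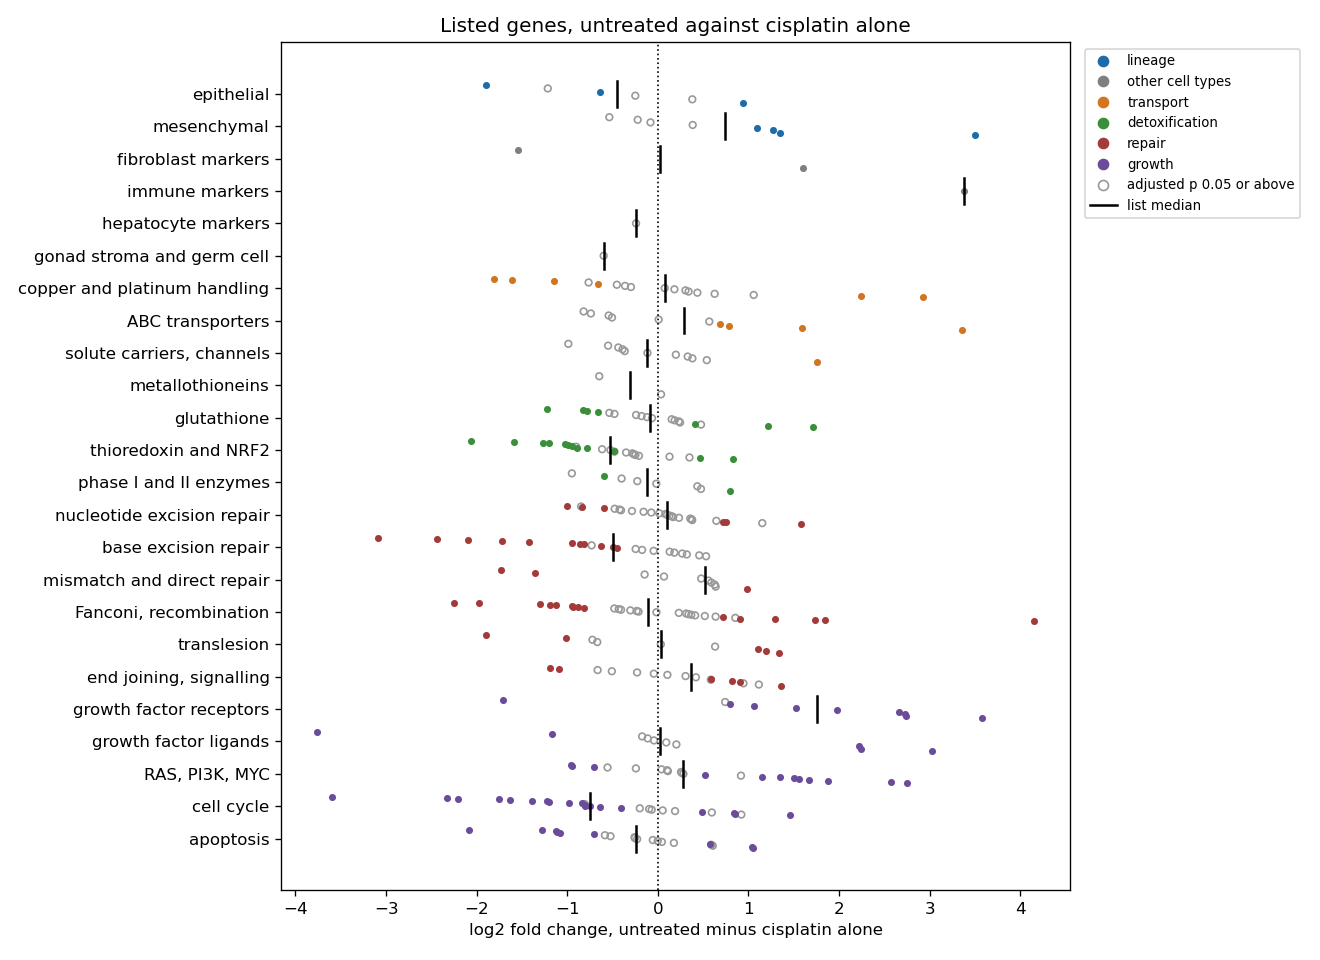
Log2 fold change of each listed and tested gene, untreated minus cisplatin alone, from edgeR, with 1 row for each list. Filled points passed an adjusted p of 0.05, open points did not, and black bars are list medians. Receptor genes lie mostly right of 0 (median 1.75), and cell cycle and thioredoxin genes mostly left (medians -0.74 and -0.52).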

How the data were processed

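Gene expression was measured by QuantSeq 3′ sequencing in IGROV-CP20 cells, in 15 libraries over 5 conditions. The authors deposited raw read counts per Ensembl gene, without normalization or filtering. The submitters' processing notes name STAR 2.3.0, HTSeq and hg19. The annotation and the strand setting are not given in the sources used here. Names came from a gene name list and otherwise from GENCODE 29, which also gave biotypes and transcript lengths. GENCODE 29 is in another build, so the only coordinates printed are those of the promoter windows, on GRCh38.p14.

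CPM used library totals, and its levels carry no test. Untreated and cisplatin libraries were compared with edgeR 4.0.16 in R 4.3.3: filterByExpr, TMM factors, a quasi-likelihood fit of all 15 libraries with a term for each condition, Benjamini-Hochberg adjustment and a threshold of 0.05. Each SE printed with a log2 difference was derived from the test, as the absolute difference divided by the square root of its F statistic. It was not estimated by the fit. Tables and plots were made in Python 3.11.15 (pandas 2.3.3, scipy 1.17.1, numpy 2.4.6, matplotlib 3.10.9). In simulated data for this comparison with 10773 genes tested, 39 of 100 genes changed 2-fold and 99 of 100 changed 4-fold were found. Another 8 genes were called though unchanged. Only 200 genes were changed in the simulation, against 4967 calls in the real data, so these shares need not hold there.

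The genes and lists were chosen with earlier results of these data known. Named genes are the 20 highest, the 3 highest and up to 3 at the floor in each list, 34 chosen by name for their part in platinum response or lineage, the 2 of each list with the smallest adjusted p, and the 5 with the largest ratio between untreated libraries. Alternatives were other scalings, filters and thresholds, DESeq2 1.42.0, the replicate number as a block, fewer libraries and each library left out. Results for some genes of the lists are not reported here.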

Additional observations from a re-analysis of the deposited data

How the results depend on the processing

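The number of genes expressed in untreated cells, 12202, ranged from 11113 to 14341 over other thresholds and scalings and was 12390 to 12547 with 1 untreated library left out. Leaving out genes whose end lies under another gene on the same strand, a setting chosen after seeing the data, gave 12064. Leaving out 1 library at a time gave 1667 to 2347 genes lower and 1914 to 2781 higher in untreated than in cisplatin cells, where a condition with 2 libraries borrows its spread from the rest. A threshold of 0.01 on the adjusted p gave 1403 lower and 1709 higher. Library size as the only scaling gave 1019 lower and 3351 higher, and raised the share of calls that were higher from 52.8% to 76.7%. DESeq2 gave 2613 lower and 2515 higher. With the replicate block, which takes equal numbers as pairs, there were 2307 lower and 2674 higher. Libraries with equal numbers correlated at 0.00292, 0.0420 and 0.0256 across genes in their deviations from the condition means. Those with different numbers correlated between -0.0558 and 0.0282. With 3 libraries in each condition, these values cannot tell whether equal numbers mark a shared day or batch. The 16 genes whose calls are given by name in that comparison passed the threshold in the same direction in all 14 alternatives. They were chosen with their results known, many for a small adjusted p, so this says little of other calls. Among called genes not named there, MBD4 and EPHX1 each lost the call in 9 alternatives and APEX1 in 7. Among the 1735 recomputed log2 differences of the 124 tested genes that the naming rule selects, 0 reversed, 73 lost and 42 gained the call. CPM near 1 rests on about 3 reads, so the order of genes below about 2 CPM is not resolved at this depth.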
